A study of Mus musculus with 3 samples.

Results

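The core circadian clock genes were followed in mpkDCT4a cells, an immortalised mouse kidney line that derives from distal convoluted tubule. The 10 genes were taken by name from a table of read counts for 55487 Ensembl genes, and all 10 had an entry. They were the activators Clock and Arntl, the period genes Per1, Per2 and Per3, the cryptochrome genes Cry1 and Cry2, the REV-ERB genes Nr1d1 and Nr1d2, and the output factor Dbp. The series holds 3 RNA libraries labelled as replicates of 1 group of wild-type cells, with no treatment, genotype or time contrast. All had been grown at 37 °C in a medium with dexamethasone (50 nM), serum (2%), insulin (5 µg/ml), epidermal growth factor (10 ng/ml), triiodothyronine (1 nM) and glucose (20 mM). The labels name neither an hour of harvest nor a step that sets the cells to 1 phase of the cycle. Each value is therefore a mean over a culture of 1 line at an unstated time, and fewer expressing cells and less RNA per cell cannot be told apart.

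In mammals, the proteins CLOCK and ARNTL (also called BMAL1) pair and switch on genes that carry E-box elements in their promoters. Among these genes are the period and cryptochrome genes, whose proteins return to the nucleus and block the pair, so that transcription rises and falls in a cycle of about a day. A second loop runs through the REV-ERB nuclear receptors, which repress Arntl through ROR response elements, and another through Dbp and its relatives, which act on D-box elements. In the kidney the clock is known for daily rhythms in blood flow, filtration and salt excretion, and Per1 for its part in sodium transport along the distal nephron.

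The elements through which these loops connect can be read in the promoters of several of the genes. RefSeq promoter windows, from 250 bases before to 50 bases after an annotated start on GRCm38.p6, were on hand for 9 of the 10 genes, all but Per2, in 13 windows. 5 motifs were searched on both strands: the E-box CACGTG, its variant CACGTT, the D-box TTATGTAA, the cAMP response element TGACGTCA and the consensus of the ROR response element. Stretches with an E-box, a D-box or a ROR element are shown because each carries the element by which 1 arm of the clock is known to act on another, with that element in capitals and 35 bases on each side where the window allows. Matches of the CACGTT variant are left in lower case. Cry1 is shown at chr10:85185074-85185149 (minus strand), Per1 at chr11:69098748-69098823 (plus strand), Per3 at chr4:151044781-151044905 (minus strand) and Arntl at chr7:113207502-113207560 (plus strand).
Cry1: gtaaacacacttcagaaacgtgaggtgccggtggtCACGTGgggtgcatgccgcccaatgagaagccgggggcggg
Per1: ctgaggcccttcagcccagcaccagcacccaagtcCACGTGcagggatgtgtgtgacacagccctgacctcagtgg
Per3: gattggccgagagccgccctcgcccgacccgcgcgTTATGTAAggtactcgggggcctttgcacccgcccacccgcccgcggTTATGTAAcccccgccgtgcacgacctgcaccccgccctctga
Arntl: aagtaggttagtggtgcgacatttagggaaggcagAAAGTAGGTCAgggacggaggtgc
The E-box of Cry1 begins 60 bases before the start. That of Per1 begins 166 bases before the first of the 2 starts in the RefSeq table, and the window of the other start held no match. In Per3 the D-box occurs at 205 and at 158 bases before the start. The ROR element of Arntl begins 26 bases past the second of its annotated starts. Of all 32817 promoter windows, 7.15% hold CACGTG, 0.935% hold TTATGTAA and 0.384% hold the ROR consensus. The variant CACGTT, present in 4.69% of windows, was found in Cry1, Cry2 and Nr1d1, in each on the opposite strand. It overlapped none of the other matches. TGACGTCA, present in 1.79% of windows, occurred in none of the 13, and the windows of Clock, Nr1d2 and Dbp held none of the 5 motifs. A match describes these letters in this window and says nothing of binding in these cells.

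The libraries were shallow, and this set what could be seen. They held 436983, 482418 and 443192 counts in replicates 1, 2 and 3, so that 1 count was worth 2.07 to 2.31 counts-per-million (CPM). Summed over the libraries, the clock genes had between 7 counts (Nr1d1) and 158 counts (Clock), and 441 together. Genes whose mean reached 1 CPM count as detected, and all 10 clock genes did so, beside 50.6% of the 21974 protein-coding genes. This threshold lies below 2.20 CPM, the limit that 0 counts over the 3 libraries allow, so a detected gene may rest on very few counts. At a mean of at least 10 CPM there were 6 of 10 clock genes, beside 40.8% of protein-coding genes. Of 12 distal convoluted tubule markers 5 were detected, a share no larger than that of protein-coding genes. The count therefore does not bear out the labelled cell type. Summed over the libraries, the 5 detected markers were Wnk4 with 61 counts, Cnnm2 with 27, Trpm6 with 12, Kcnj10 with 9 and Egf with 3. The other 7 markers, among them the defining cotransporter gene Slc12a3 and Pvalb, had 0 counts. Levels of different genes are compared in transcripts-per-million (TPM), which divides counts by the length of all annotated exons of a gene. Errors are SD over the 3 libraries, and 95% intervals cover counting error only.

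The activators were unequal, with Arntl far below Clock. Arntl (ENSMUSG00000055116, chromosome 7, 113207465 to 113314126, plus strand), which encodes the partner of CLOCK, had 4, 4 and 1 counts in replicates 1, 2 and 3, or 3.21 ± 1.83 TPM. Clock (ENSMUSG00000029238, chromosome 5, 76209868 to 76304792, minus strand), which encodes a DNA-binding subunit with histone acetyltransferase activity, had 57, 55 and 46 counts, or 31.1 ± 3.44 TPM. The ranges of the libraries did not overlap, and Arntl stood at 0.104 times the TPM of Clock (95% interval 0.0467 to 0.202). The paralogs of both were low or without counts. Arntl2, a relative of Arntl, had 3, 2 and 2 counts and 3.34 ± 0.930 TPM, which was 1.03 times the TPM of Arntl with an interval of 0.325 to 3.10 that spans no difference. Npas2, which can take the place of Clock in some tissues, had 0 counts in every library. Against 3 counts over all libraries, the limit that a count of 0 allows, it stood at most at 0.0544 times the TPM of Clock.

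Among the period genes, which encode the repressors that carry cryptochromes into the nucleus, Per1 was the main transcript. Per3 (ENSMUSG00000028957, chromosome 4, 151003652 to 151044665, minus strand), whose loss is known to have mild effects on the rhythm in mice, had 2, 0 and 6 counts in replicates 1, 2 and 3, or 2.31 ± 2.64 TPM. Per2 (ENSMUSG00000055866, chromosome 1, 91415982 to 91459324, minus strand), whose loss shortens and weakens the rhythm in mice, had 6, 5 and 4 counts, or 6.94 ± 1.48 TPM. Per1 (ENSMUSG00000020893, chromosome 11, 69095217 to 69109960, plus strand), which is also known as a direct target of the glucocorticoid receptor, had 22, 32 and 24 counts, or 37.3 ± 5.69 TPM. Per1 was highest in all 3 libraries, and Per3 was lowest in all 3 by TPM. Per2 stood at 0.185 times the TPM of Per1 (0.0988 to 0.324) and Per3 at 0.0601 times (0.0251 to 0.124). Per3 stood at 0.325 times the TPM of Per2 (0.119 to 0.817), a gap that narrowed in replicate 3 to 5.20 TPM for Per3 against 5.68 TPM for Per2. That direction in replicate 3 rests on the exon length: Per3 had 6 counts there and Per2 had 4, and with the mean or the longest transcript length the 2 genes did not keep 1 direction in all libraries. Most of the Per3 counts came from that replicate, and the mean of Per3 was 2.30 CPM without it and 6.02 CPM with it.

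The cryptochrome genes, whose proteins are the strongest repressors of the CLOCK and ARNTL pair, were both present. Cry2 (ENSMUSG00000068742, chromosome 2, 92403646 to 92434043, minus strand) had 6, 8 and 8 counts, or 9.40 ± 1.32 TPM. Cry1 (ENSMUSG00000020038, chromosome 10, 85131700 to 85185064, minus strand) had 17, 17 and 18 counts, or 42.2 ± 2.90 TPM, the highest mean among the 10 genes. Cry2 stood at 0.224 times the TPM of Cry1 (0.129 to 0.375), with the same direction in all 3 libraries. An antisense partner, D930015M05Rik, shares 295 bases (4.67%) of the exons of Cry2 and had 0 counts.

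The REV-ERB genes, whose products are heme-binding repressors, were unequal too, with Nr1d2 far above Nr1d1. Nr1d2 (ENSMUSG00000021775, chromosome 14, 18204054 to 18239127, minus strand), which encodes REV-ERB beta, had 26, 31 and 26 counts, or 41.4 ± 2.26 TPM. Nr1d1 (ENSMUSG00000020889, chromosome 11, 98767932 to 98775333, minus strand), which encodes REV-ERB alpha, had 1, 2 and 4 counts, or 6.17 ± 4.18 TPM. Nr1d2 stood at 6.75 times the TPM of Nr1d1 (3.13 to 17.3) and was higher in all 3 libraries. The mean log2 ratio of 2.64 was 3.30 with the mean transcript length. The last exon bases of Nr1d1 lie across from those of Thra, the thyroid hormone receptor alpha gene on the opposite strand, with 263 shared bases (8.55% of the exons of Nr1d1). Thra had 12, 9 and 6 counts. The sources used here do not say whether the authors counted by strand. Without strand the reads of such a pair cannot be told apart, so the count of Nr1d1 is uncertain to that extent.

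Dbp (ENSMUSG00000059824, chromosome 7, 45705088 to 45710203, plus strand), a D-box activator that is among the most rhythmic transcripts in many tissues, had 3, 1 and 5 counts, or 8.28 ± 5.67 TPM. Sphk2, a sphingosine kinase gene on the opposite strand, shares 539 bases (18.0%) of its exons and had 8, 7 and 14 counts, so the count of Dbp is uncertain in the same way. Dbp stood at 0.538 times the TPM of Tef, another D-box activator (0.231 to 1.12). Tef had 12, 16 and 16 counts and 15.1 ± 2.13 TPM, and Hlf, the remaining activator of the family, had 0 counts, at most 0.0803 times the TPM of Tef. Nfil3, which encodes the repressor that competes for the same D-box elements, had 14, 17 and 15 counts and 61.3 ± 3.32 TPM. That was 7.55 times the TPM of Dbp (3.65 to 17.6). As a mean log2 ratio per library, Nfil3 over Dbp was 2.93, and it was 1.79 with the mean transcript length, 2.22 with the longest transcript and 2.34 without replicate 2. Dbp over Tef was -0.90 on that scale, and -2.23 with the mean transcript length.

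**Figure D1:**
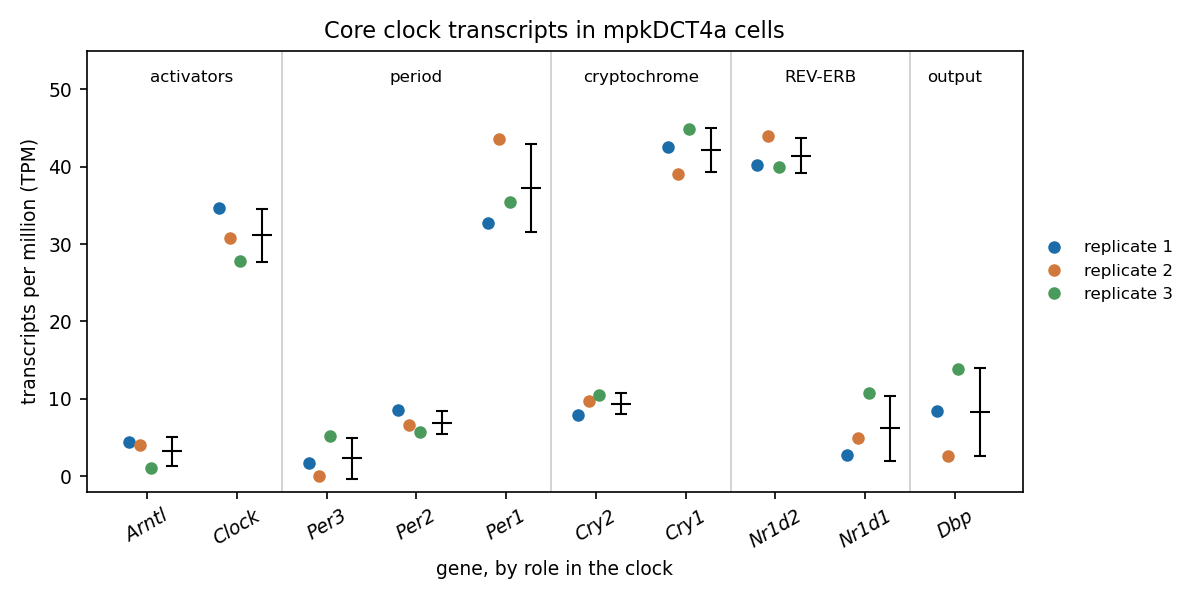
Level of each core clock gene in TPM (y axis) by role (x axis), with 1 point per library and, beside the points, a bar for the mean with its SD over the 3 libraries. Clock, Per1, Cry1 and Nr1d2 lie between 27.9 and 44.8 TPM in every library, and the other 6 genes lie at or below 13.9 TPM.

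By TPM the order from the highest was Cry1, Nr1d2, Per1, Clock, Cry2, Dbp, Per2, Nr1d1, Arntl and Per3. Of the 9 pairs of neighbours in this order, the ranges over the libraries stood apart in 1, Clock and Cry2. Clock had 3.31 times the TPM of Cry2 (2.11 to 5.43). The order within the upper 4 genes and within the lower 6 was thus not resolved between neighbours at this depth. The lowest value of any upper gene was 27.9 TPM (Clock in replicate 3) and the highest of any lower gene 13.9 TPM (Dbp in replicate 3), so each role except the output factor, whose 1 gene was in the lower set, had at least 1 gene in each set. The upper 4 were also the 4 highest when levels were divided by the mean or the longest transcript length, or not divided by length. This split was read from the values themselves and is a description. Among detected protein-coding genes the 10 genes ran from Cry1, with 59.1% of such genes at a lower TPM, to Per3, with 5.28% at a lower TPM. The median of the 10 was 8.84 ± 2.34 TPM, and that of all detected protein-coding genes was 31.5 ± 0.346 TPM.

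**Figure D2:**
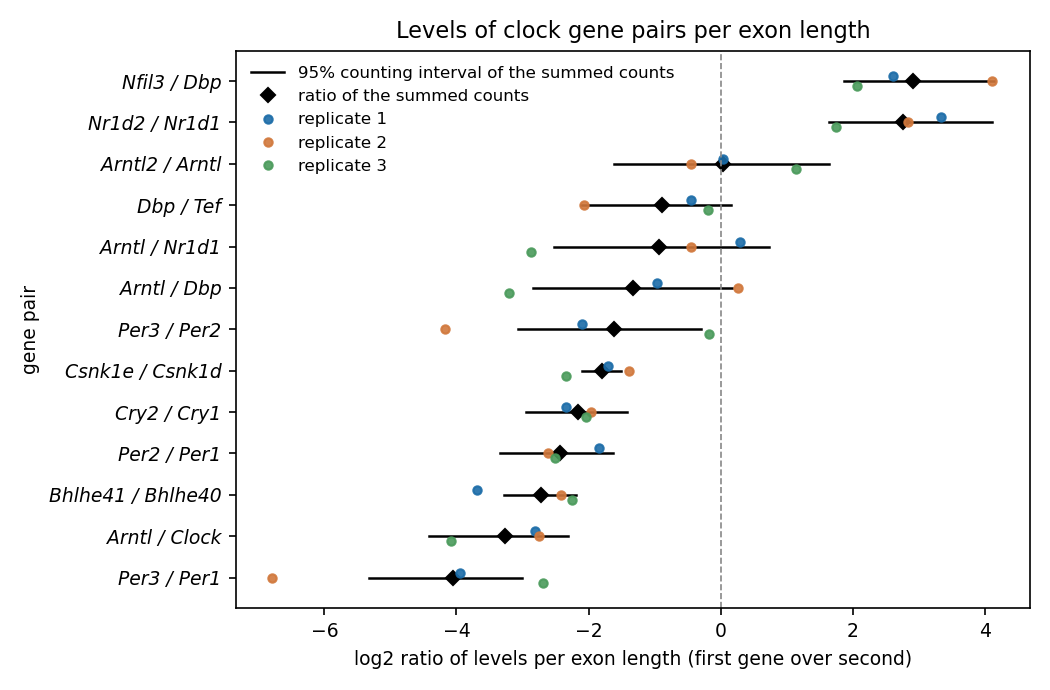
Ratio of the levels of 2 genes per exon length on a log2 scale (x axis) for 13 pairs (y axis). Colored points are the 3 libraries with 0.5 added to each count, diamonds the ratio of the summed counts and lines its 95% exact binomial counting interval. The intervals of Nr1d2 over Nr1d1 and of Nfil3 over Dbp lie right of 0, and those of Per3 over Per1, Arntl over Clock, Per2 over Per1 and Cry2 over Cry1 lie left of it.

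15 pairs of partners and relatives were compared, 13 of which had counts for both genes. In 10 of the 13 the direction was the same in all 3 libraries, and in 9 the ranges of TPM did not overlap. An exact two-sided sign-flip permutation test over 3 libraries has a smallest possible p of 0.25. These 10 pairs had that p, so no pair could pass a threshold of 0.05 and the intervals carry the comparison. As log2 ratios with 0.5 added to each count, Cry2 over Cry1 was -2.12 ± 0.20, Per2 over Per1 -2.32 ± 0.42, Arntl over Clock -3.22 ± 0.75 and Nr1d2 over Nr1d1 2.64 ± 0.81 (SD, n = 3). The other 3 pairs, Arntl2 over Arntl, Arntl over Nr1d1 and Arntl over Dbp, changed direction between libraries.

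Whether the libraries differed in clock state was asked of each gene and of genes that peak at opposite times. None of the 10 clock genes differed between the libraries by a chi-square test of counts against library size. The p-values were Benjamini-Hochberg adjusted over 12473 detected genes, of which 0.0401% differed. Arntl, Per3, Nr1d1 and Dbp had too few counts to pass after adjustment even with all their counts in 1 library. For these genes the outcome was fixed by depth. The lowest adjusted p among the 10 was 0.902, for Per3. Without adjustment 1 of the 10 genes, Per3 with 2, 0 and 6 counts, had a p under 0.05 (chi-square p = 0.0259), beside 4.89% of all genes. At so few counts the chi-square approximation is rough. Arntl is known to peak about opposite to Dbp and Nr1d1. Its counts were 4 to 3, 4 to 1 and 1 to 5 against those of Dbp in replicates 1, 2 and 3, or ratios of 1.33 (0.226 to 9.10), 4.0 (0.396 to 197) and 0.20 (0.00423 to 1.79). Against Nr1d1 they were 4 to 1, 4 to 2 and 1 to 4, or ratios of 4.0 (0.396 to 197), 2.0 (0.287 to 22.1) and 0.25 (0.00508 to 2.53). Replicate 3 had the lowest Arntl and the highest Dbp, Nr1d1 and Per3 of the 3 libraries, but the intervals of the ratios overlapped between libraries. Overlap of intervals is not a test, and a difference in these ratios between libraries was not tested. Both sets of ratios also rest on the same few Arntl counts. Without replicate 3, Nr1d1 was at 3.21 CPM and Dbp at 4.48 CPM, against 5.14 and 6.73 CPM with it.

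The spread of each gene is set beside that from counting error. Nr1d2 varied with a coefficient of variation of 5.03% and Cry1 with 7.04%, where counting error alone gives 19.0% and 24.0% at these counts. Clock varied by 12.4%, Per1 by 14.5%, Cry2 by 12.9% and Per2 by 22.8%, beside 13.8%, 19.6%, 36.9% and 44.7% from counting error. For Arntl, Nr1d1 and Dbp the values were 57.6%, 66.9% and 67.9%, beside 57.7%, 65.5% and 57.7% from counting error, and for Per3 113.5% beside 61.2%. Across 6644 expressed genes, edgeR put the spread between libraries beyond counting error at a biological coefficient of variation of 0.0379. Summed over roles, the activators reached 39.2, 34.9 and 29.0 TPM in replicates 1, 2 and 3, the period genes 43.0, 50.2 and 46.3 TPM, the cryptochromes 50.5, 48.8 and 55.4 TPM and the REV-ERB genes 42.9, 49.0 and 50.8 TPM.

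Around the core, the further transcription factors of the clock were uneven. Bhlhe41, which encodes the E-box repressor DEC2, had 6, 13 and 17 counts and 14.5 ± 6.80 TPM. Its relative Bhlhe40 (DEC1) had 58, 50 and 58 counts and 95.8 ± 12.3 TPM, above each of the 10 core genes in every library. Bhlhe41 stood at 0.152 times the TPM of Bhlhe40 (0.103 to 0.219). For Bhlhe41 19.0% of the exon bases overlap the opposite-strand gene Gm43909, so its count is uncertain. Ciart, which encodes the repressor CHRONO, had 4, 0 and 4 counts. The ROR receptors, which activate Arntl at the elements where REV-ERB proteins repress it, were close to the limit of detection. Rorb had 1, 2 and 2 counts and Rora 1, 0 and 3. The limit that 0 counts allow is 2.20 CPM over the 3 libraries.

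**Figure D3:**
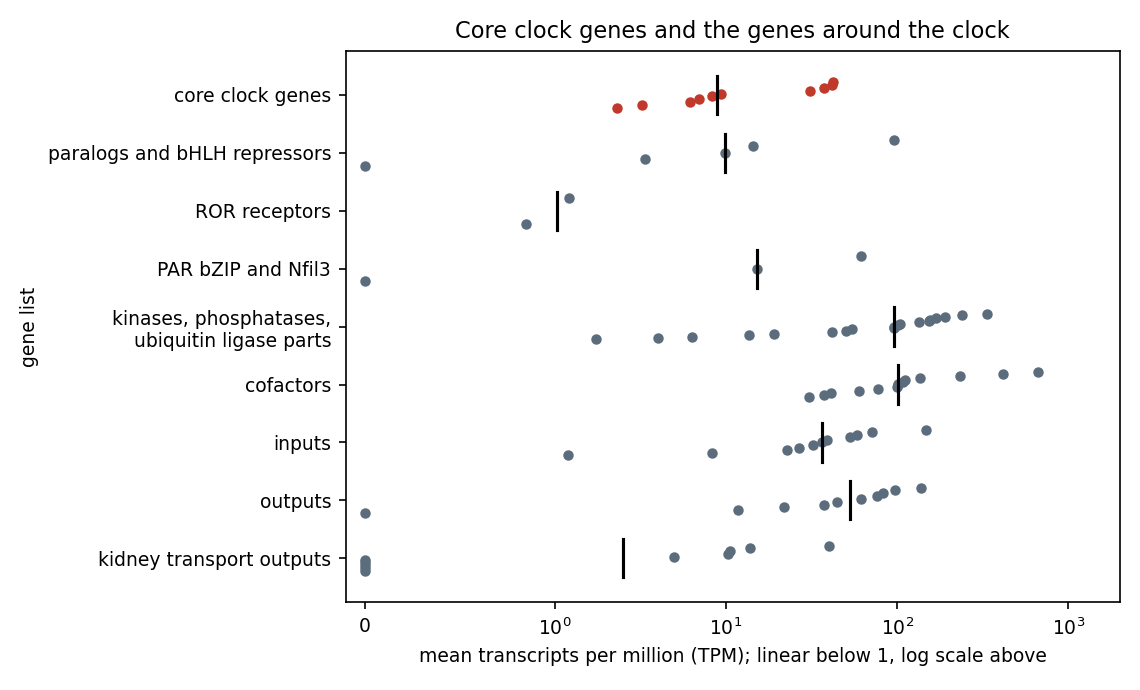
Mean level in TPM of each gene (points, x axis, linear below 1 and logarithmic above) in the core clock set and in 8 lists of clock-related genes (y axis), with the median of each list as a bar. The medians of the cofactors and of the kinase, phosphatase and ubiquitin ligase list lie near 100 TPM, at 101.5 and 96.2 TPM, and that of the core genes at 8.84 TPM.

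Most genes of enzymes that modify and degrade clock proteins were well detected. All 19 genes of this list reached a mean of 1 CPM and 17 reached 10 CPM, beside 50.6% and 40.8% of protein-coding genes. Fbxl21 reached 1 CPM with counts in only 1 library (3, 0 and 0). The median of the list was 96.2 ± 6.61 TPM. The highest by CPM were the phosphatase subunit gene Ppp2ca (238 ± 27.3 TPM), the kinase genes Gsk3b (156 ± 13.0 TPM) and Csnk1a1 (134 ± 11.5 TPM) and the deubiquitinase gene Usp7 (168 ± 7.42 TPM). Ppp2ca shares 39.9% of its exon bases with the opposite-strand gene 9430098F02Rik, so its count is uncertain. Of the kinases that mark period proteins for destruction, Csnk1e had 0.288 times the TPM of Csnk1d (0.234 to 0.352), at 54.2 ± 11.8 and 190 ± 26.4 TPM. The mean log2 ratio of -1.81 was -0.95 with the mean transcript length and -1.21 with the longest transcript, so the size of this gap depends on the length used. All 14 cofactor genes were detected, with a median of 101.5 ± 3.77 TPM. By CPM they were led by Rack1 (669.5 ± 46.6 TPM) and the paraspeckle protein gene Nono (414 ± 29.6 TPM). The corepressor gene Ncor1 (136 ± 10.9 TPM), through which REV-ERB proteins act, and the acetyltransferase gene Crebbp (108 ± 8.68 TPM) came next. Of the 50-base stretches in Nono transcripts, 15% also occur in transcripts of other genes on either strand, so its count is uncertain.

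Of 11 genes of signals that reset the clock, 10 were detected, and the median over all 11 was 36.6 ± 4.82 TPM. The kinase gene Sik1 was at 147 ± 23.6 TPM, the glucocorticoid receptor gene Nr3c1 at 70.9 ± 3.55 TPM, the actin-regulated cofactor gene Mrtfa at 52.9 ± 9.95 TPM and Creb1, which encodes the factor of cAMP response elements, at 32.1 ± 5.34 TPM. Fos had 1 count in all. Of 10 general output genes 9 were detected, and the median over all 10 was 53.1 ± 6.80 TPM. The reductase gene Por was at 138.5 ± 4.62 TPM, the mitotic kinase gene Wee1 at 96.6 ± 7.0 TPM, the NAD-salvage gene Nampt at 75.9 ± 9.69 TPM and the transcription factor gene Klf9 at 61.8 ± 3.44 TPM. Rgs16 had 0 counts.

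Of 10 outputs of the clock in kidney transport, 5 were detected, about the share among all protein-coding genes, 50.6%. The median over all 10 genes was 2.50 ± 1.13 TPM. It describes no typical level, since the other 5 genes had 0 counts. The kinase gene Wnk4 was at 40.0 ± 9.56 TPM and the kinase gene Sgk1 at 13.7 ± 1.86 TPM. Hsd11b2, whose enzyme inactivates glucocorticoids, had 4, 0 and 3 counts and 10.6 ± 9.45 TPM. The sodium channel subunit gene Scnn1a had 3, 10 and 3 counts and 10.2 ± 7.23 TPM. The transporter genes Slc9a3 and Slc12a3, the vasopressin receptor gene Avpr2 and the water channel gene Aqp2 had 0 counts. For Avpr2, 81.3% of the exon bases overlap the opposite-strand gene Arhgap4, so its 0 is uncertain. Over the 8 clock-related lists 65 of 74 genes were detected, beside 50.6% of protein-coding genes. None differed between the libraries after adjustment, beside 0.0401% of all detected genes. Without adjustment Ppp2ca (241, 213 and 204 counts, chi-square p = 0.0277) and Fbxl21, a cryptochrome ubiquitin ligase gene (3, 0 and 0 counts, chi-square p = 0.0401), had a p under 0.05. Among all detected genes 4.89% had such a p. The chi-square approximation is poor at 3 counts in all, so Fbxl21 cannot be said to differ.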

How the data were processed

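The authors deposited raw read counts, 1 whole number for each gene in each library. STAR, HTSeq and the build mm10 are named per the submitters' processing notes. Versions, strand setting and annotation release were not given there. Per the labels' protocols, libraries came from 500 ng of total RNA depleted of ribosomal RNA and fragmented to about 300 bp. The final digit of each column name assigned it to a replicate, and 0 columns were left unused.

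GENCODE M21 on GRCm38 gave names, positions and exon lengths for 55227 of 55487 identifiers; the 260 others held 313 counts (0.0230%). Totals were scaled by TMM, edgeR's trimmed mean of log ratios (edgeR 4.0.16, R 4.3.3), with factors of 0.992, 1.00 and 1.01. CPM used these sizes and TPM the union of a gene's exons. Each gene's 3 counts were compared with library size by a chi-square test, Benjamini-Hochberg adjusted over the 12473 genes that reached a mean of 1 CPM, threshold 0.05. Pairs were compared by exact binomial intervals of summed counts over the length ratio and by an exact sign-flip permutation test with a pseudocount of 0.5. The chi-square test and the edgeR estimate of spread beyond counting error were tested on simulated data. All pairs of libraries differed by more than counting error over 8983 genes (chi-square p at most 0.000713), so none was taken as a copy. The labels do not say whether replicates were separate cultures, so the spread behind the p-values may be only technical.

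The members and lists were chosen with earlier results of these data known. The genes named are all 10 members and all genes of the pairs. Of each other list they are the 4 highest by CPM and up to 4 below 1 CPM. Rorb, Ciart, Fbxl21 and, as tubule markers, Slc12a3, Pvalb, Wnk4, Cnnm2, Trpm6, Kcnj10 and Egf were named after their values were seen. 1 listed gene and its pair are not reported here. Alternatives were DESeq2 1.42.0 size factors, library totals, other lengths, thresholds, filters and pseudocounts, and leaving out each replicate. Promoter windows are those of RefSeq. With 1 group in the labels, no conditions were compared. Scripts ran under Python 3.11.15 with scipy 1.17.1, pandas 2.3.3, numpy 2.4.6 and matplotlib 3.10.9.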

Additional observations from a re-analysis of the deposited data

How the results depend on the processing

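The 10 genes' levels in CPM moved by less than their SD under all 50 combinations of gene and alternative library size or omitted replicate. With 1 of 3 replicates left out this outcome is fixed by arithmetic, so it is no sign of stable levels. Per3, at 6.02 CPM with all replicates, ranged from 2.30 to 9.02 CPM, and Nr1d1, at 5.14 CPM, from 3.21 to 6.58 CPM. The median of the 10 genes, 13.6 CPM, ranged from 13.5 to 13.6 CPM. All 10 genes remained detected at 5 CPM, and 9 had a count in every library, Per3 being the exception. No clock gene differed between libraries under any of 7 alternatives, with lowest adjusted p of 0.791 to 0.970 (chi-square with Benjamini-Hochberg adjustment). Arntl, Per3, Nr1d1 and Dbp had too few counts to pass in any of these. The count of genes that differed over the whole table was 5, and 1 to 3 with a replicate left out, when fewer counts were compared. Relative to the order by TPM, 2 genes changed position with the mean transcript length, 4 with the longest transcript and 7 when levels were not divided by length. Of 78 alternative values for 13 pairs, 72 stayed within the SD, 5 moved further and 1 reversed. Leaving out 1 of 3 replicates cannot move a mean by its SD, so the values without a replicate could only stay or reverse. All 5 that moved came from another transcript length. The reversed value was Arntl2 over Arntl, at -0.20 on the log2 scale without replicate 3, 0.59 without replicate 2 and 0.24 with all. The mean transcript length moved Dbp over Tef to -2.23, against -0.90 with exon unions, Nfil3 over Dbp to 1.79, against 2.93, and Csnk1e over Csnk1d to -0.95, against -1.81. The longest transcript moved Csnk1e over Csnk1d to -1.21 and Cry2 over Cry1 to -1.59, against -2.12. The cause was not tested. Per3 over Per1 ranged from -5.37 to -3.31 and Per3 over Per2 from -3.13 to -1.14 with a replicate left out. Pairs with a gene at 0 counts were given as limits and not varied. Of the clock-related genes 61 reached 5 CPM. No paired analysis was possible because the labels give 1 group. Depth limits every statement on Arntl, Per3, Nr1d1 and Dbp, the core genes with fewer than 10 counts in all. The same holds for other genes named here with as few counts.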
